A study of Mus musculus with 6 samples.

Results

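Stathmins, doublecortin and the classical neuronal microtubule proteins form a set of 10 genes: Stmn1, Stmn2, Stmn3, Stmn4, Dcx, Dclk1, Map1b, Map2, Mapt and Gap43. They were chosen by their symbols in the authors' deposited table of Setd2-KO and wild-type neural progenitor cells (NPCs), and all 10 were found among its 15095 genes. The experiment compared 3 libraries of Setd2-KO NPCs with 3 libraries of wild-type NPCs, both derived in culture from mouse embryonic stem cells, at day 8 of neuronal differentiation. The aggregates had grown for 4 days without retinoic acid and for 4 more days with 5 uM of it, in both genotypes. The Setd2-KO stem cells came from CRISPR editing and share the isogenic background of the wild type. The labels give neither the allele nor the clone behind the libraries, so an effect of the genotype and an effect of a single line cannot be told apart. SETD2 is the methyltransferase that places H3K36me3 in the bodies of transcribed genes. Whether the 3 libraries of each genotype stem from independent differentiations is not stated. The p-values therefore weigh a change only against the spread between these libraries, and that spread may be technical.

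The table gives, for each gene, a log2 fold change from the authors' edgeR fit, an average log2 CPM (read counts scaled to a common library size) over the 6 libraries, and a p-value with its false discovery rate (FDR). It holds no value per library, so no SD or range over libraries can be printed for a gene, and the depth per library is unknown. A negative fold change here means lower in Setd2-KO than in wild-type NPCs. The p-value comes from edgeR's glmTreat, which asks whether a change exceeds 1 on the log2 scale in either direction, with Benjamini-Hochberg adjustment. A gene was called lower or higher when this change was exceeded at an FDR under 0.05, and a gene that did not pass is not shown to be unchanged. Setd2 itself had a log2 fold change of -0.44 and did not pass (FDR of 1), and since a disrupted gene can still be transcribed, its RNA level does not check the genotype.

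Microtubules are polymers of alpha- and beta-tubulin that carry cargo and give axons and dendrites their shape. Stathmins bind free tubulin dimers and favour the shrinking of microtubules, whereas doublecortin, MAP1B, MAP2 and tau bind along the polymer and stabilise it. In the developing nervous system many of these proteins appear as newborn neurons migrate and extend neurites. Transcripts of several are widely used to mark cells that have left the progenitor state, but Stmn1 is also expressed in dividing cells. GAP43 is a membrane protein of the growth cone rather than a microtubule protein, and marks axon outgrowth.

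Of the 10 genes, 4 were called lower at an FDR under 0.05, namely Stmn4, Stmn3, Gap43 and Mapt, and 0 were called higher. Among all 15095 genes, 2.11% were called lower and 1.54% were called higher. All 10 genes had a log2 fold change below 0, as did 49.2% of all genes, and their median was -0.98 beside a median of 0.01 over all genes. Values ranged from -1.76 for Stmn4 to -0.09 for Stmn1. The genes had been selected with earlier results of these data known, so these counts describe them and are not a test of the group. In RNA of a bulk culture, fewer neurons and less RNA per neuron cannot be told apart.

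**Figure D1:**
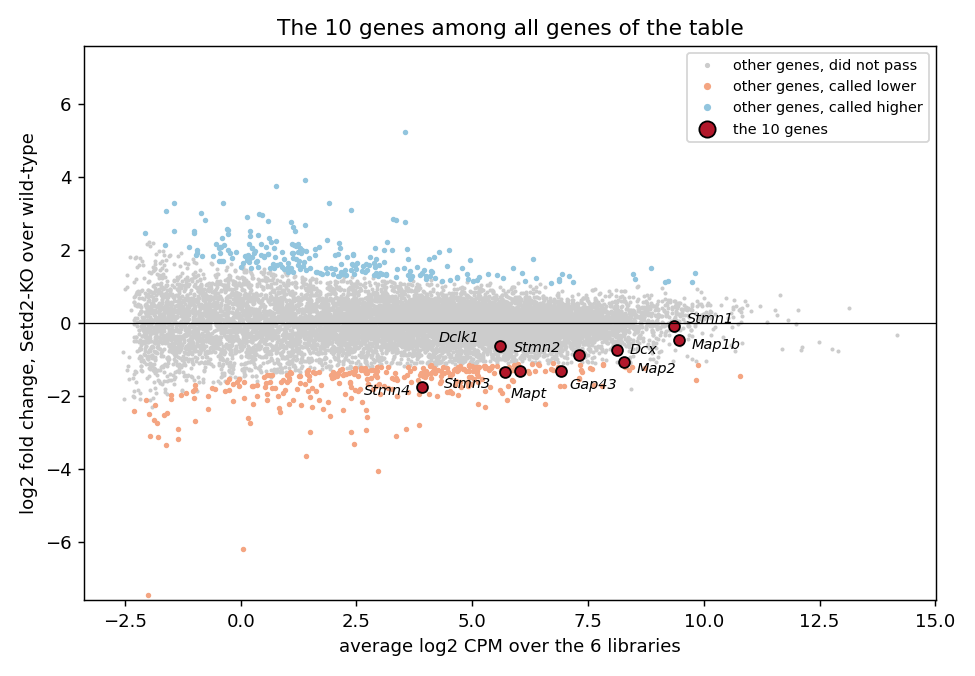
Log2 fold change on the y axis (positive when higher in Setd2-KO NPCs) against the average log2 CPM over the 6 libraries (x axis) for every gene of the authors' deposited table; each point is 1 gene, and the 10 genes described here are large and labelled. All 10 lie below 0, and Stmn1 and Map1b, at average log2 CPMs of 9.35 and 9.46, lie closest to it.

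Sequences near the starts of the genes are shown for elements known from neuronal genes. The repressor REST keeps neuronal genes silent in non-neuronal cells and in stem cells by binding a long element called RE1. The region of 5 kb on each side of the canonical start of each gene was searched on both strands of GRCm39 for the best match to the RE1 consensus, with 18 informative positions of 21. At most 3 mismatches were found for 1 of the 10 genes, Stmn2, as for 3.03% of the 15066 genes searched. The site of Stmn2 lies at chr3:8573290-8573310 on the plus strand, at position -1055 relative to the start, and has 1 mismatch; 0.299% of the genes searched had a site with 1 mismatch or fewer. The best sites of Stmn3 and Mapt had 4 mismatches, a score that 15.7% of all genes reached or bettered, and they are shown for contrast with that of Stmn2. The site of Stmn3 lies at chr2:180955994-180956014 on the minus strand, 289 bases downstream of its start. That of Mapt lies at chr11:104122062-104122082 on the plus strand, 48 bases downstream of its start. Capitals mark the bases that equal the consensus.
Stmn2: TTCAGCACCacGGACAGcGCt
Stmn3: gcCAGCACCatGGcCAGcaCC
Mapt: gTCAGCACCgcGGcCcGaGgC
The best sites of the other 7 genes had 5 or 6 mismatches. For Map2 the canonical start lies inside the gene, at chr1:66360830. The region searched for it therefore does not include its promoter window described below. Of the 318 searched genes called lower in Setd2-KO NPCs, 1.57% had a site with at most 1 mismatch, 6.29% with at most 2, 11.3% with at most 3 and 25.2% with at most 4, beside 0.299%, 0.863%, 3.03% and 15.7% of all genes searched; no test was run on these shares. Stmn2 was not called lower. A match is a description of the letters and does not show that REST binds there. Rest itself had a log2 fold change of 0.47 and did not pass the test (FDR of 1).

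Promoter windows, 250 bases upstream of a RefSeq start (GRCm38.p6), were held for 5 of the genes (Stmn3, Dcx, Dclk1, Map1b and Map2) and differed widely in base composition. The 2 windows of Dclk1 had 52.4% and 46.8% GC. The window of Map2 had a GC content of 81.2% with 34 CpG dinucleotides and 5 GC boxes (GGGCGG on either strand), and 99.1% of 32851 promoter windows had a lower GC content. The window of Map1b had 66.4% GC, 1 TATA box (TATAAA), 1 GC box and 1 E-box (CANNTG, the element of proneural factors of the basic helix-loop-helix class). All 250 bases of this Map1b window lie in annotated exons of GRCm39. The upstream window of Stmn3 had 48.8% GC, 3 CpG dinucleotides and 1 E-box. The more distal of the windows of Dcx had 41.6% GC, 1 TATA box and 1 CCAAT box (CCAAT), with 0 E-boxes. Over all promoter windows, 66.2% held an E-box, 32.7% a GC box, 33.8% a CCAAT box and 12.4% a TATA box. To show these different kinds of promoter side by side, the parts of the windows of Map2, Stmn3 and Dcx that no annotated exon covers are given, 5′ to 3′ in the direction of the gene, with the motifs in capitals (2 of the 5 GC boxes of Map2 lie in its stretch). They were placed on GRCm39 by their sequence, at chr1:66214238-66214326 for Map2 (plus strand), chr2:180956346-180956543 for Stmn3 (minus strand) and chrX:142716308-142716465 for Dcx (minus strand).
Map2: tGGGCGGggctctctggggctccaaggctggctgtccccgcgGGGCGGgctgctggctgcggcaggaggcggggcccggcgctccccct
Stmn3: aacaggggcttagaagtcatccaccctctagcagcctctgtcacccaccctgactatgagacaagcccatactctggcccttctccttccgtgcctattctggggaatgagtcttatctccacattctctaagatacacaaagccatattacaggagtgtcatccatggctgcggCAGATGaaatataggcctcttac
Dcx: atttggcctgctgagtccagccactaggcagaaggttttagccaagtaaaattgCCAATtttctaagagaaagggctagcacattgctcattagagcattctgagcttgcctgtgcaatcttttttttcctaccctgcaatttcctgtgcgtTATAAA
Of these 3 genes only Stmn3 was called lower.

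The 4 stathmins spread over the whole range of the set. Stmn4 encodes a membrane-anchored stathmin of neurons (also known as RB3) and lies on chromosome 14 from 66581745 to 66599131 (GRCm39, plus strand). In the authors' deposited table its log2 fold change was -1.76, so that the level in Setd2-KO NPCs was 29.4% of that in wild-type NPCs (edgeR, FDR of 4.3e-08). Only 0.775% of all genes had a lower log2 fold change. Its average log2 CPM was 3.91.

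Stmn3 (SCLIP), another neuronal stathmin, lies on chromosome 2 from 180948247 to 180956293 (minus strand). Its log2 fold change was -1.33 at an average log2 CPM of 5.72, or 39.8% of the wild-type level (edgeR, FDR of 1.9e-04). The 43 other genes of the table within 1 Mb of Stmn3 had a median log2 fold change of -0.31, with 4 called lower and 1 called higher. Stmn3 thus lay below the median of its neighbours, which itself lay below 0.

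Stmn2 (SCG10), the stathmin of growing axons, lies on chromosome 3 from 8574151 to 8626667 (plus strand) and had a log2 fold change of -0.89, or 54.1% of the wild-type level, at an average log2 CPM of 7.30. It did not pass the test against an absolute change of 1 (FDR of 1). The 7 genes of the table within 1 Mb had a median of 0.30, and 0 of them were called.

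Stmn1, the founding member, is expressed in dividing cells of many tissues as well as in neurons, and lies on chromosome 4 from 134195021 to 134201882 (plus strand). It had a log2 fold change of -0.09 at an average log2 CPM of 9.35 and did not pass. The difference between Stmn4 and Stmn1 within this family was -1.68 on the log2 scale, with no error available for it.

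To set the 2 genotypes side by side, a CPM of each was derived from the average CPM and the fold change of the authors' deposited table, on the assumption that the average CPM is the mean of both genotypes. These derived levels carry no error. Stmn4 came to 6.83 CPM in Setd2-KO and 23.2 CPM in wild-type NPCs. Stmn3 came to 30.0 CPM in Setd2-KO and 75.3 CPM in wild-type NPCs. Stmn2 came to 111 CPM in Setd2-KO and 205 CPM in wild-type NPCs. Stmn1 came to 634 CPM in Setd2-KO and 674 CPM in wild-type NPCs, so that it alone made up 81.1% of the stathmin CPM in Setd2-KO and 69.0% in wild-type NPCs. The 4 stathmins summed to 781 CPM in Setd2-KO and 977 CPM in wild-type NPCs, a ratio of 0.80. These shares and sums are of reads and are not scaled to gene length.

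**Figure D2:**
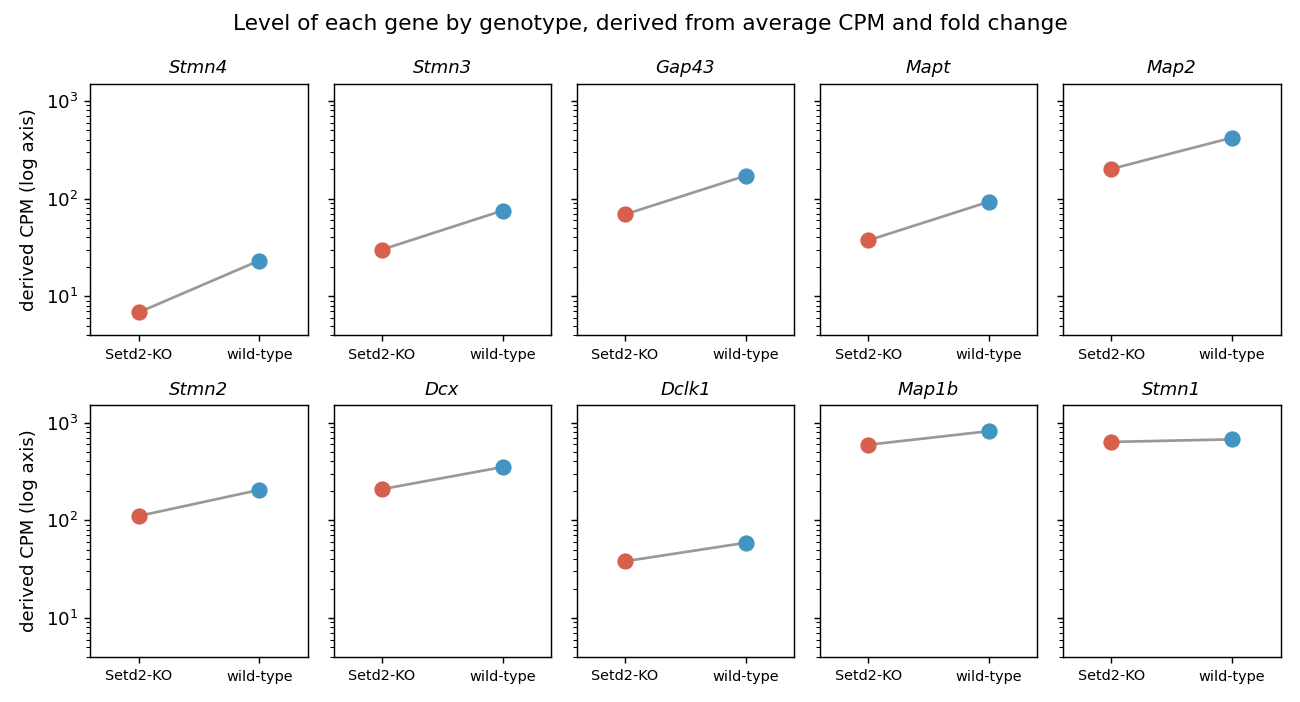
Derived CPM (y axis, log scale, the same in each panel) of the 10 genes in Setd2-KO (left, red) and wild-type NPCs (right, blue), 1 panel per gene; each point is a value derived from the authors' average CPM and fold change, with no error. The steepest line is that of Stmn4 (6.83 and 23.2 CPM), and that of Stmn1 (634 and 674 CPM) is nearly flat.

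Dcx and Dclk1 lay between Stmn4 and Stmn1. Dcx stabilises microtubules in migrating neurons, and its human gene is mutated in lissencephaly. It lies on chromosome X from 142638838 to 142716307 (minus strand) and its log2 fold change was -0.75, or 59.4% of the wild-type level, at an average log2 CPM of 8.13. Its derived level was 208 CPM in Setd2-KO and 350.5 CPM in wild-type NPCs. Dclk1 joins doublecortin domains to a protein kinase and lies on chromosome 3 from 55149618 to 55446493 (plus strand). Its log2 fold change was -0.63 at an average log2 CPM of 5.60, with a derived level of 38.1 CPM in Setd2-KO and 58.9 CPM in wild-type NPCs. Neither gene passed the test (FDR of 1 for both). Of their relatives, Dclk2 had a log2 fold change of -0.44 and did not pass, whereas Dclk3 fell by 2.22 on the log2 scale (edgeR, FDR of 5.8e-05). Dclk3 had a low average log2 CPM of 0.27, with derived levels of 0.425 CPM in Setd2-KO and 1.99 CPM in wild-type NPCs.

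Of the classical microtubule-associated proteins, Mapt fell, and Map1b had the value nearest 0. Mapt encodes tau, the protein of axonal microtubules, and lies on chromosome 11 from 104122024 to 104222946 (plus strand). Its log2 fold change was -1.32, or 40.2% of the wild-type level, at an average log2 CPM of 6.02 (edgeR, FDR of 9.3e-07). Its derived level was 37.3 CPM in Setd2-KO and 92.8 CPM in wild-type NPCs. The 15 genes within 1 Mb had a median log2 fold change of -0.03, and 0 of them were called, so that Mapt was low in a region that was not.

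Map2, the microtubule protein of dendrites and cell bodies, lies on chromosome 1 from 66214327 to 66481746 (plus strand). Its log2 fold change of -1.06 was 47.9% of the wild-type level at an average log2 CPM of 8.28, and its derived level was 201 CPM in Setd2-KO and 420 CPM in wild-type NPCs. The change lay just past the tested threshold: the unadjusted p was 0.039, the FDR was 0.69 over all genes (edgeR), and Map2 was not called. At an unadjusted p under 0.05, 5 of the 10 genes lay lower, as did 3.43% of all genes.

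Map1b, which is prominent in growing axons of the embryo, lies on chromosome 13 from 99557954 to 99653137 (minus strand) and had an average log2 CPM of 9.46. Its log2 fold change was -0.46 and did not pass (FDR of 1), and its derived level was 593 CPM in Setd2-KO and 817 CPM in wild-type NPCs. Its close relative Map1a, the form of mature neurons, had a log2 fold change of -0.94 and did not pass either. Map1s and Map4, the members of the MAP1 and the MAP2/tau families found in most cell types, had log2 fold changes of -0.01 and -0.11. The difference between Mapt and Map4 was -1.20 and that between Map2 and Map4 was -0.95 on the log2 scale. These differences between genes have no error and were not tested.

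Gap43, the growth cone protein, lies on chromosome 16 from 42068805 to 42161086 (minus strand). It fell by 1.32 on the log2 scale, to 40.1% of the wild-type level, at an average log2 CPM of 6.91 (edgeR, FDR of 3.5e-06). Its derived level was 68.8 CPM in Setd2-KO and 171 CPM in wild-type NPCs. Only 2 other genes of the table lie within 1 Mb, with a median log2 fold change of -0.91 and 0 called.

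**Figure D3:**
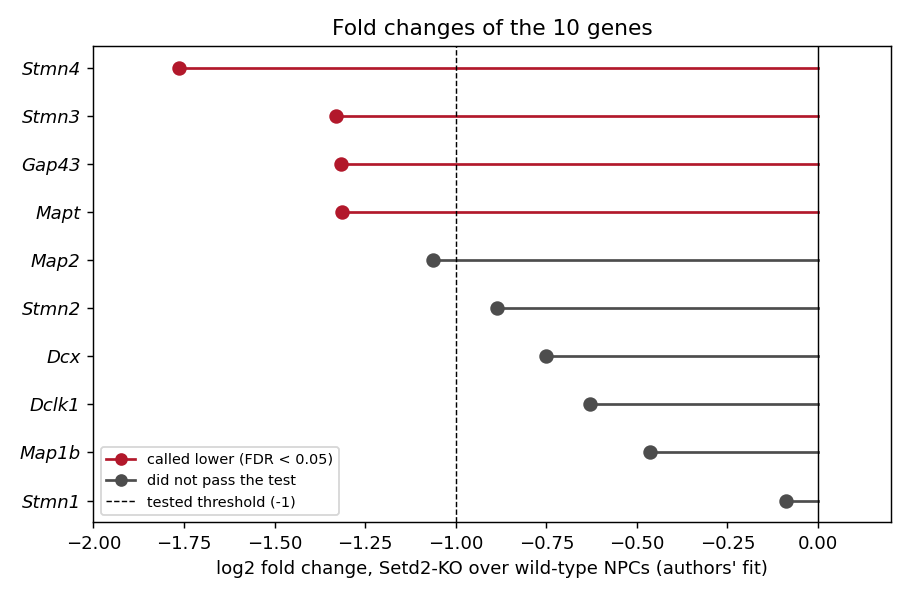
Log2 fold change (x axis, negative when lower in Setd2-KO NPCs) of each of the 10 genes from the authors' deposited table, ordered from lowest to highest; the dashed line is the change of -1 that the test was run against. Stmn4, Stmn3, Gap43 and Mapt (red) passed at an FDR under 0.05, Map2 (-1.06) lay past the line without passing, and the other 5 lay between -0.89 and -0.09.

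Levels of different genes can be compared only per length, and the derived CPM was therefore divided by the exonic length of each gene in kilobases. On this scale Stmn1 was highest, with 126 CPM per kb in Setd2-KO and 134 CPM per kb in wild-type NPCs. It was followed in wild-type NPCs by Gap43 and Map1b, and in Setd2-KO NPCs Gap43 and Map1b had nearly the same level, with 36.3 and 35.9 CPM per kb, against 90.3 and 49.5 CPM per kb in wild-type NPCs. Dclk1 was the lowest in wild-type NPCs, with 1.75 CPM per kb in Setd2-KO and 2.70 CPM per kb in wild-type NPCs. Stmn4 was the lowest in Setd2-KO NPCs, with 1.19 CPM per kb in Setd2-KO and 4.03 CPM per kb in wild-type NPCs. With the length of the longest transcript instead, Map1b lay above Gap43 in Setd2-KO NPCs (49.9 and 43.8 CPM per kb), and Stmn4 (6.13 CPM per kb) lay below Dclk1 (6.53 CPM per kb) in wild-type NPCs. These levels have no spread over libraries, so neighbours in the order cannot be told apart here.

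Among the 10 genes, those with a higher average CPM, which is not scaled to length, tended to lie nearer 0. Spearman's rho between the average log2 CPM and the log2 fold change was 0.68 over the 10 genes, given as a description, since all values come from the same 6 libraries. Over all genes the same rho was -0.04. The span of the gene did not order the fold changes: the shortest genes were Stmn1 (6.86 kb) and Stmn3 (8.05 kb), with log2 fold changes of -0.09 and -1.33, and the longest was Dclk1 (296.9 kb), with -0.63. The rho with the span was 0.14 over the 10 genes and -0.03 over all genes with a known span.

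The 9 lists of other microtubule and growth cone genes, written by hand from their known roles, held 123 further genes of the table. Of these, 5 were called lower (4.07%, beside 2.11% of all genes) and 0 were called higher, and 92 had a log2 fold change below 0. The median of these genes was -0.25, smaller in size than that of the 10 genes. The 5 called genes were Dclk3, Nrgn, Apc2, Mapk10 and Cdk5r1. Nrgn, which encodes the postsynaptic protein neurogranin and shares a calmodulin-binding motif with Gap43, fell by 2.38 on the log2 scale (edgeR, FDR of 2.3e-09) at an average log2 CPM of only 2.21. Apc2, the brain form of the tumour suppressor APC that binds microtubules, fell by 1.71 (edgeR, FDR of 3.0e-11), with a derived level of 58.8 CPM in Setd2-KO and 193 CPM in wild-type NPCs. Mapk10 encodes the neuronal Jun kinase JNK3 and fell by 1.61 (edgeR, FDR of 5.6e-07). Cdk5r1 encodes p35, the activator of the kinase CDK5, and fell by 1.17 (edgeR, FDR of 0.0081).

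By list, structural microtubule-associated proteins, including Map1b, Map2 and Mapt, had 1 of 26 genes called lower and a median log2 fold change of -0.38. The called gene was Mapt, and without the members 0 of 23 were called lower, with a median of -0.31. Growth cone and axon outgrowth proteins, including Gap43, had 2 of 17 called lower and a median of -0.53. Without Gap43, 1 of 16 was called lower, with a median of -0.44. The collapsin response mediator genes of the growth cone list, Crmp1 (-0.97) and Dpysl3 (-0.92), named after their values were seen, did not pass the test. Plus-end and growth factors had 1 of 21 called lower (4.76%) and a median of -0.28. Kinases of microtubule-associated proteins had 2 of 19 called lower (10.5%) and a median of -0.19. Among all genes 2.11% were called lower, and counts of 1 or 2 genes say little about a list of this size.

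**Figure D4:**
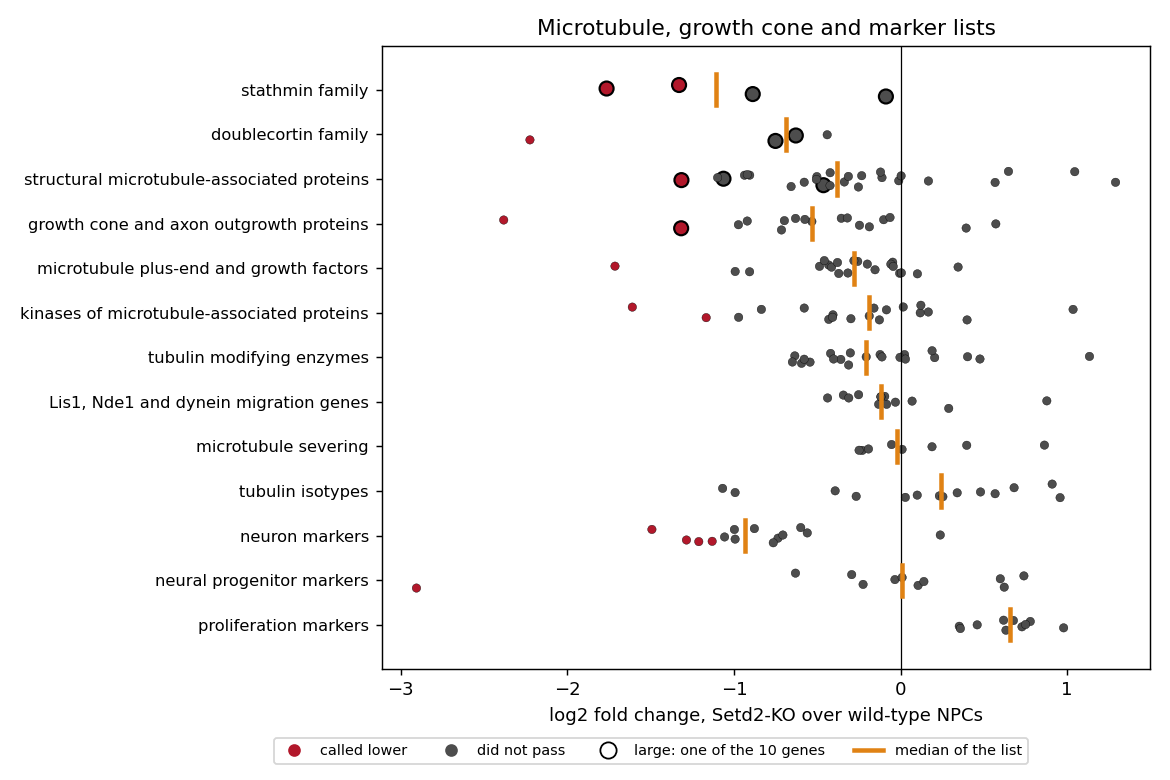
Log2 fold change (x axis, negative when lower in Setd2-KO NPCs) of every gene of the table in 13 lists (rows); each point is 1 gene, spread vertically only for legibility, red where it was called lower, and large where it is 1 of the 10 genes. The orange bars are the medians, which run from -1.11 for the stathmin family to 0.65 for the proliferation markers.

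Several paralogs of the members and of the listed genes differed between a form enriched in neurons and a form found in most cells; these were singled out after their values were seen. Mapre3, which encodes the plus-end protein EB3 of neurons, had a log2 fold change of -0.99, whereas its broadly expressed relative Mapre1 had 0.10. Apc2 lay at -1.71 and Apc at -0.28. Mapk10 lay at -1.61, Mapk8 at -0.19 and Mapk9 at 0.12. Of these 7 genes only Apc2 and Mapk10 passed the test, and the differences between paralogs were not tested. Other genes of the lists went the other way. Dync1i1, the dynein intermediate chain gene enriched in neurons, had 0.88 at an average log2 CPM of -0.55, and its relative Dync1i2 had -0.31. The neuronal kinase genes Camk2a (0.17) and Camk2b (1.04) also lay above 0, and did not pass.

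Lists of cell type markers were set beside the 10 genes. For comparison, 2.11% of all genes were called lower and 1.54% higher. The summed CPM of a list are not scaled to gene length. Of 14 neuron markers, 4 were called lower (28.6%) and 0 higher, with a median log2 fold change of -0.94, close to the -0.98 of the 10 genes. Their derived CPM summed to 2023 in Setd2-KO and 3946 in wild-type NPCs, and the called genes included Syt1 (-1.49), Elavl3 (-1.28) and Nefm (-1.21). Of 11 progenitor markers, 1 was called lower, Fabp7 (-2.91), and the median was 0.01, with a summed derived CPM of 3245 in Setd2-KO and 3153 in wild-type NPCs. All 10 proliferation markers lay above 0, with a median of 0.65, and 0 passed the test (edgeR; 0 at an unadjusted p under 0.05). Top2a had a log2 fold change of 0.36 and Mki67 of 0.35. The derived CPM of all 10 summed to 2554 in Setd2-KO and 1740 in wild-type NPCs. Of 8 endoderm markers 4 were called higher, led by Afp (2.78), Apob (1.55) and Apoa1 (1.43), whereas Gata4 (-0.96) and Gata6 (-0.54), named after their values were seen, lay below 0 and did not pass. Of 7 mesoderm and muscle markers 2 were called higher, Hand2 (2.84) and Tbx5 (2.07). The derived CPM summed to 137 in Setd2-KO and 101 in wild-type NPCs for the endoderm markers, and to 33.8 in Setd2-KO and 10.1 in wild-type NPCs for the mesoderm and muscle markers. Of 8 pluripotency markers 1 was called lower, Tdgf1 (-1.97, at an average log2 CPM of -1.52). The median of these 8 was -0.22, with 5 below 0 and 3 above. At an unadjusted p under 0.05 (edgeR), 2 of them lay lower and 0 higher. Of 6 glia markers and 4 blood and endothelial markers in the table, 0 were called (edgeR; 0 at an unadjusted p under 0.05). The glia markers had a median log2 fold change of -0.14, with 4 below 0 and 2 above. Those of highest average log2 CPM were Mbp (-0.27) and Pdgfra (-0.08). The blood and endothelial markers had a median of -0.56, with 3 below 0 and 1 above. Those of highest average log2 CPM were Cdh5 (-0.76) and Kdr (-0.47). The part of the cell mixture in the values of the 10 genes was not tested.

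Of 6 reported regulators of the members or their human counterparts, Elavl3 (also 1 of the neuron markers above) was called lower. The other 5 did not pass. Elavl4 (HuD), which stabilises the Gap43 transcript, had a log2 fold change of -0.71, and Elavl2 had -0.82. Tardbp, which in human neurons protects the STMN2 transcript from a truncating cryptic exon, had 0.21, and the splicing regulator Ptbp2 had -0.25.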

How the data were processed

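PolyA RNA of 3 Setd2-KO and 3 wild-type NPC samples was made into strand-specific libraries and compared by the authors. The authors' deposited table holds log2 fold changes, average log2 CPM, and p-values and FDR of edgeR's glmTreat, made after their read processing, filtering of low counts and normalization. For the authors' upstream steps, the submitters' notes list NCBIM37 and mm9 as builds and STAR, Trim Galore and edgeR as tools; GRCm39 and Salmon appear in the paper's methods. The authors' own comparison is thus the source of each fold change and call, and could not be refitted.

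Signs were turned to Setd2-KO over wild type, since 518 of 523 genes shared with the study's list of directed genes then had its direction. The Benjamini-Hochberg adjustment over 15095 genes was recomputed. Gene IDs were matched without version to GENCODE vM39 (15066 found). Promoters came from RefSeq. A CPM per genotype was derived by taking the average CPM as the arithmetic mean of both genotypes. Alternatives were other thresholds and adjustments, another mean and another gene length. The 10 members, the 19 lists and the RE1 search were chosen with earlier results of these data known. Named were all members, Setd2, members of their families, and from each list the called genes (up to 6, or 3 for markers) or else the 2 of highest average log2 CPM; genes named outside this rule are marked in the text or were needed for a comparison. A gene that this rule would name is not reported here. Scripts used Python 3.11.15, numpy 2.4.6, pandas 2.3.3, scipy 1.17.1 and matplotlib 3.10.9, and were tested on simulated data.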

Additional observations from a re-analysis of the deposited data

How the results depend on the processing

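The count of 4 genes called lower was the same at an FDR under 0.1 or 0.01, with the Benjamini-Yekutieli adjustment, and with adjustment over protein-coding genes or over genes at or above 0 or 2 in average log2 CPM. It was 3 with Bonferroni adjustment, where Stmn3 had 0.0511, and 5 at an unadjusted p, where Map2 had 0.0391. The microtubule and growth cone lists together with the 10 members held 133 genes, of which 9 were called lower (6.77%, beside 2.11% of all genes). Of these 9 genes, 4 were members. The count was also 9 at an FDR under 0.1 or 0.01 or with adjustment over genes at or above 0. At an unadjusted p under 0.05, 11 lay lower and 1 higher. The median log2 fold change of the 10 genes was -0.96 as a mean, -0.98 relative to all genes, and between -1.06 and -0.89 without any 1 gene. Taking the average CPM as a geometric mean moved derived levels by at most 19.3%, and using the longest transcript moved 12 of 20 levels per kb by over 1.5 times. With 4 mismatches allowed, a choice added after seeing the data, 3 genes had an RE1 match. No paired analysis was possible because the table holds no value per library, and for the same reason no library could be left out. Read depth per gene is known only through the average log2 CPM, which was lowest for Dclk3 and Nrgn among the called microtubule and growth cone genes.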

Other observations

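Of 8 severing genes, 0 were called (edgeR; 0 at an unadjusted p under 0.05), with a median log2 fold change of -0.02. Among them was Spast, which encodes the severing enzyme spastin (-0.23). Of 21 tubulin modifying enzymes 0 were called (edgeR; 0 at an unadjusted p under 0.05), and the median was -0.21. Ttll4, a polyglutamylase, had 0.02, and Vash1, which removes the terminal tyrosine of alpha-tubulin, had -0.65. Of 13 genes of LIS1, NDE1 and the dynein complex, which move nuclei during neuronal migration, 0 were called (edgeR; 0 at an unadjusted p under 0.05), with a median of -0.12. Among these were the heavy chain gene Dync1h1 (-0.34) and Pafah1b1, which encodes LIS1 (-0.13).

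Of 14 tubulin genes, 0 were called (edgeR; 1 at an unadjusted p under 0.05, Tubb4a), 4 lay below 0 and 10 above, and the median was 0.24. Tubb3, the neuronal beta-tubulin, had -0.99 with a derived level of 574 CPM in Setd2-KO and 1143 CPM in wild-type NPCs, whereas Tubb5 had 0.23 with 3294 CPM in Setd2-KO and 2803 CPM in wild-type NPCs. Tuba1a had 0.03. Some tubulin genes of the same type are near-identical in sequence, and how reads were divided between such genes is unknown here.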
